A study of Mus musculus with 30 samples.

Results

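Binding of the coactivator p300 was compared between mouse embryonic stem (ES) cells without thymine DNA glycosylase (Tdg -/-) and ES cells with floxed Tdg alleles (Tdg fl/fl). The comparison rests on 2 deposited lists of p300 regions, and every region of either list on chromosomes 1 to 19 and X was included. The Tdg -/- list held 43345 regions and the fl/fl list 32160, together 75505 of the 694490 regions in the 8 lists of the series. Regions of the 2 lists that overlapped by 1 bp or more were called shared. A region of the Tdg -/- list without such a counterpart was called new, and one of the fl/fl list was called lost.

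p300, encoded by Ep300, is a histone acetyltransferase that transcription factors recruit to enhancers and promoters, and its binding is widely used to map enhancers. Its close relative CBP is encoded by Crebbp. TET enzymes oxidise 5-methylcytosine first to 5-hydroxymethylcytosine (5hmC) and then to 5-formylcytosine (5fC) and 5-carboxylcytosine. Thymine DNA glycosylase (TDG) cuts the last 2 of these bases out of DNA, and base excision repair then restores cytosine. TDG has been reported to bind both CBP and p300. In ES cells, enhancers are among the places where this turnover of methylation is most active.

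Tdg -/- ES cells were set against Tdg fl/fl ES cells, and both carry the strain label C57BL/6-ICR. The promoter or agent used to delete the floxed alleles was not stated in the labels. In each genotype chromatin was immunoprecipitated with the Santa Cruz antibody sc-585 against p300, in 3 libraries labelled as replicates. The authors deposited 1 list for each genotype that covers its 3 libraries together. Neither the read numbers behind a list nor the control used in calling is given in the sources used here, nor is whether the libraries came from separate cultures or clones. The spread between libraries therefore cannot be had, no p-value is given, and intervals on shares are Wilson 95% intervals that cover counting error only. Genotype and library depth cannot be told apart in the length of these lists.

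In the deposited FPKM tables (expression scaled to transcript length and library size, 1 value for each gene and genotype), Tdg was at 9.48 FPKM in Tdg -/- ES cells and 22.1 FPKM in fl/fl ES cells. The transcript thus remained at 42.9% of the fl/fl level, and which exons the deletion removes was not stated in the labels. Ep300 was at 27.4 FPKM in Tdg -/- ES cells and 25.9 FPKM in fl/fl ES cells. Crebbp was at 7.57 FPKM in Tdg -/- ES cells and 7.27 FPKM in fl/fl ES cells. The genes of both coactivators were thus listed at similar levels, without replicates. Of 10 ES cell markers, 9 were in the tables, and all 9 exceeded 1 FPKM in both genotypes, with Nanog at 456 FPKM in Tdg -/- ES cells and 473 FPKM in fl/fl ES cells. Markers of other cell types were low: 1 of 6 fibroblast markers (Thy1), 1 of 5 primitive endoderm markers (Gata4) and 0 of 4 mesoderm markers exceeded 1 FPKM in Tdg -/- ES cells, and the same numbers in fl/fl ES cells. Of 4 neuroectoderm markers, 3 exceeded 1 FPKM in Tdg -/- ES cells and 2 in fl/fl ES cells.

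The Tdg -/- list was longer, and most of what it added had low scores. Of its 43345 regions, 18313 were new, which is 42.2% of the list (41.8% to 42.7%). Of the 32160 fl/fl regions, 6958 were lost, which is 21.6% (21.2% to 22.1%). New and lost regions were narrow and took a smaller part of the covered bases than of the region numbers. New regions covered 14.3 Mb, 34.7% of the 41.2 Mb covered by the Tdg -/- list. Lost regions covered 5.70 Mb, 18.7% of the 30.5 Mb covered by the fl/fl list. Both lists covered 22.8 Mb in common, which is 55.4% of the Tdg -/- length and 74.9% of the fl/fl length.

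The deposited score of a region grows with the strength of its call (a p-value's log10 multiplied by -10, the scale that the headers of other lists in the series give), and it also grows with depth, so it was used to rank and group regions within a list. New regions had a median score of 78.0, against 181 for shared regions of the Tdg -/- list. Lost regions had a median score of 70.8, against 125 for shared regions of the fl/fl list. Each list was cut by score into 10 bins of equal size. In the lowest bin of the Tdg -/- list 75.9% of regions were new, and in the highest bin 1.06% were (46 of 4335). In the lowest bin of the fl/fl list 46.8% of regions were lost, and in the highest bin 0.466% were (15 of 3216). The share without a counterpart was smaller at every step up the bins in both lists. Of the 1000 highest-scoring regions, 3 of the Tdg -/- list and 3 of the fl/fl list lacked a counterpart. The strongest p300 regions of either genotype were thus nearly all called in the other as well.

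**Figure D1:**
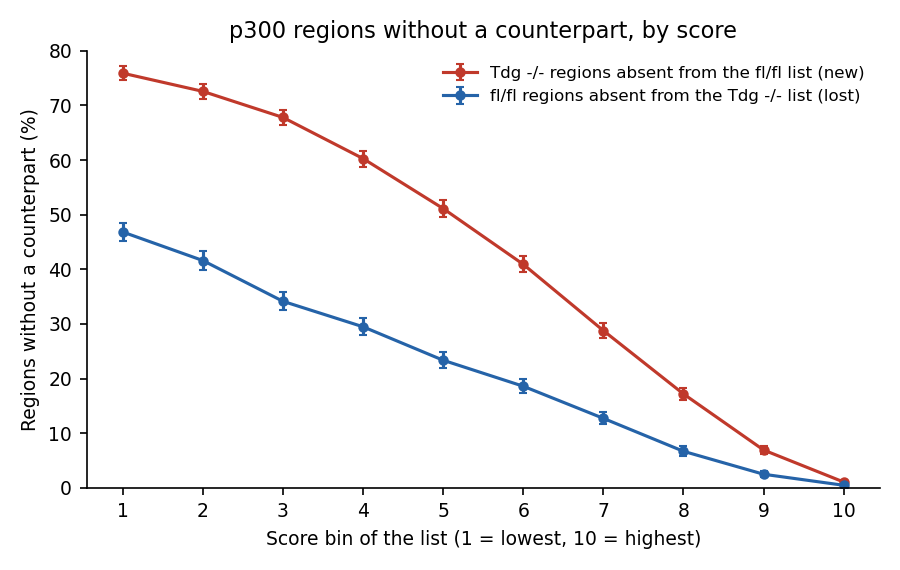
Share of regions without a counterpart in the other list (%, y axis) in 10 equal bins of each list's own scores (x axis, lowest to highest), for the Tdg -/- list (red, new) and the fl/fl list (blue, lost); bars are Wilson 95% intervals. Both curves fall at every step, with new regions going down to 1.06% and lost regions to 0.466% in the highest bin.

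The list lengths bear on these counts. When the Tdg -/- list was trimmed by score to the 32160 regions of the fl/fl list, 10125 regions were new and 9851 were lost. When only regions with a score of at least 100 were kept in both lists, 11088 were new and 3378 were lost. This limit sets scores of both lists side by side although their depths are unknown, and a region then also counted as new or lost where its counterpart scored below 100.

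Few new or lost regions owed their class to the 1 bp rule. Among overlapping pairs, 172 shared no more than 50 bp, and 51 of these no more than 10 bp. Just outside the rule, 152 new regions and 75 lost regions ended within 50 bp of a region of the other list. Within 500 bp of the other list lay 1752 new regions (9.57%) and 826 lost regions (11.9%). At the other extreme, 1421 new regions (7.76%) and 209 lost regions (3.00%) were more than 100 kb from any region of the other list.

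Of the 929 new regions scoring 200 or more, 40.4% lay within 5 kb of a shared region, against 47.4% of shared Tdg -/- regions of that score. Of the 5 new regions with the highest scores, all but the fifth did. The first, at chr8:74839159-74840816 (mm9, as are all coordinates here), had a score of 3100, a value that 90 regions of the Tdg -/- list share and 103 reach or exceed, and lay 1603 bp from a shared region in a chain of 8 regions. A pair followed at chr10:76655298-76657633 and chr10:76653448-76654729, with scores of 1612 and 1135, which lay 422 and 3326 bp from shared regions. The region at chr19:23207266-23211878 was 4612 bp wide with a score of 1366, and a shared region lay 97 bp away. The fifth, at chr4:46678016-46680670 with a score of 1104, stood alone, 21347 bp from the nearest shared region. Only the last of these 5 touched a listed 5fC or 5hmC region of the ES lists. No annotation of this build was used here, so no genes are named for these regions, and regions prone to false signal were not removed.

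The highest-scoring lost regions came as pairs as well. On chromosome 11, chr11:116952237-116954621 had a score of 1292 and chr11:116949558-116950544 a score of 1104, both in a chain of 10 fl/fl regions, and the nearest Tdg -/- regions were 7860 and 9053 bp away. On chromosome 17, chr17:45595044-45596774 had a score of 983 and chr17:45592812-45594407 a score of 690, also in a chain of 10. Here the nearest Tdg -/- regions were closer, at 2570 and 338 bp. The remaining one, chr15:101063164-101064913, scored 834 and lay 531 bp from a shared region in a chain of 15. Of these 5 lost regions, 2 touched a listed 5fC or 5hmC region of the ES lists.

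Widths separated the classes in both genotypes. New regions had a median width of 698 bp, against 926 bp for shared regions of the Tdg -/- list. Lost regions had a median width of 735 bp, against 862 bp for shared regions of the fl/fl list. New regions were narrower than shared ones on 20 of 20 chromosomes, and so were lost regions. Wider regions overlap others more readily, so these widths describe the classes and are not tested. Width also goes with score. Among regions scoring under 100, the median width was 654 bp for new and 773 bp for shared regions, and among those scoring 200 or more it was 942 bp for new and 1040 bp for shared regions. For lost regions the gap was present only under a score of 100, at 693 bp for lost and 731 bp for shared regions, while at 200 or more they measured 1056 bp and shared regions 1043 bp.

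Over the whole lists, the median region was slightly narrower in Tdg -/- cells, at 818 bp (range 223 to 9817 bp), than in fl/fl cells, at 833 bp (range 269 to 6949 bp). Regions that matched 1 to 1 went the other way. Of these 23572 pairs, which hold 94.2% of the shared Tdg -/- regions and 93.5% of the shared fl/fl regions, the Tdg -/- region had a median width of 918 bp and the fl/fl region of 856 bp. The median log2 ratio of widths, Tdg -/- over fl/fl, was 0.07 (95% interval of the median 0.067 to 0.075), with 10% of pairs below -0.26 and 10% above 0.53. This interval takes region pairs as units and does not cover the spread between libraries. Genotype and library depth cannot be told apart in these widths either. The Tdg -/- region was the wider one in 14589 pairs (61.9%). It was at least 2 times as wide in 388 pairs, and the fl/fl region was in 88 pairs. The shared sites were thus called slightly wider in Tdg -/- cells, while the many narrow new regions brought the median of the whole list down.

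Matched regions sat on the same spots. Their centres differed by a median of 54.5 bp, and by more than 500 bp in 297 pairs (1.26%). In 51.0% of pairs the shorter region lay wholly within the longer. Across the 23572 pairs, Spearman's rho between the genotypes was 0.75 for width, as a description of points that share their 2 lists. Few regions were split or joined: 641 Tdg -/- regions covered parts of at least 2 fl/fl regions, and a smaller number, 482, of fl/fl regions covered parts of at least 2 Tdg -/- regions.

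The widest regions of both lists coincided on chromosome 19. The Tdg -/- region chr19:5840919-5850736 was 9817 bp wide and overlapped the fl/fl region chr19:5841121-5848070, which was 6949 bp wide. The next widest Tdg -/- regions, chr8:74842317-74849069 (6752 bp) and chr8:74854402-74860861 (6459 bp), the first of them new, belonged to the same chain of 8 regions as the highest-scoring new region. The next widest fl/fl regions were chr11:3188350-3194863 (6513 bp) and chr1:154938808-154944960 (6152 bp), of which the region on chromosome 1 was lost, with a score of 50.4 near the lowest deposited value of 50. At the ends of the width ratios among matched pairs, the Tdg -/- region was the wider in chr13:59756116-59760037, at 3921 bp against 719 bp in fl/fl cells, and in chr6:137488616-137492151, at 3535 bp against 751 bp. It was the narrower in chr11:3192607-3193908, at 1301 bp against 6513 bp in fl/fl cells, and in chr17:27178039-27179007, at 968 bp against 4038 bp.

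New and lost regions lay somewhat farther from shared regions than shared regions lay from each other. The median distance from a new region to the nearest shared region was 11846 bp, against 8614.5 bp between a shared Tdg -/- region and the next shared one. For lost regions it was 11716 bp, against 8442 bp between shared fl/fl regions. Within 5 kb of a shared region lay 34.0% of new regions (33.3% to 34.7%), against 40.7% of shared ones (40.1% to 41.3%). For lost regions the share within 5 kb was 33.1% (32.0% to 34.2%), against 41.0% of shared ones (40.4% to 41.6%). By median distance, new regions were the farther class on 19 of 20 chromosomes and lost regions on 20 of 20.

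**Figure D2:**
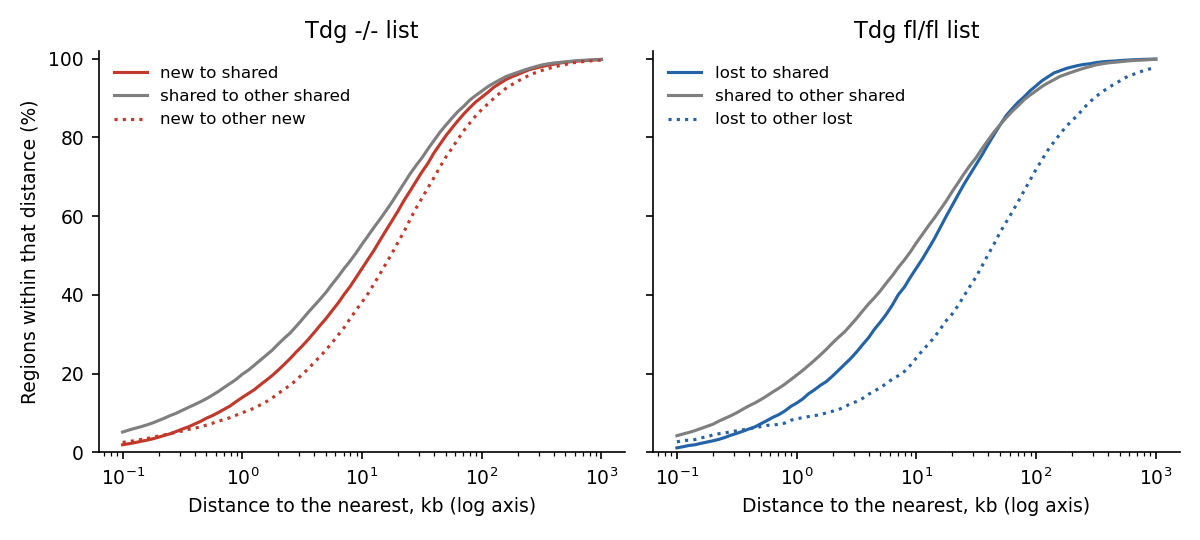
Cumulative share of regions (%, y axis) by edge-to-edge distance to the nearest region of the named kind (kb, log axis), in the Tdg -/- list (left) and the fl/fl list (right). Solid coloured lines run from new or lost regions to shared ones and lie below the grey lines between shared regions over most distances; dotted lines between regions of the new or lost class lie lowest from about 1 kb on.

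The size of this gap varied with score. In the Tdg -/- list, 33.6% of new and 35.0% of shared regions scoring under 100 lay within 5 kb of a shared region. Among regions scoring 200 or more these shares were 40.4% of new and 47.4% of shared regions. In the fl/fl list they were 32.9% of lost and 35.6% of shared regions under 100, and 40.2% of 179 lost and 51.6% of shared regions at 200 or more. At low scores, where most new and lost regions lie, their spacing from shared regions was thus close to that of shared regions of like score.

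By median, new regions lay closer to a shared region than to another new one. The median distance from a new region to the next new region was 17339 bp. Lost regions were sparser, at a median of 39444 bp from the next lost region. These distances also depend on class size, since a class with more regions offers nearer ones. The Tdg -/- list held 25032 shared and 18313 new regions, and only 6958 fl/fl regions were lost. More than 100 kb from any shared region lay 9.80% of new regions and 6.90% of lost regions. These remote new regions were narrower, with a median width of 635.5 bp, than the new regions 1 to 10 kb from a shared one, at 717 bp. Of the 1794 remote new regions, 25.4% overlapped a listed 5fC region of Tdg -/- cells, against 44.8% of those at 10 to 100 kb, 48.7% of the 5997 at 1 to 10 kb and 39.4% of the 2559 within 1 kb. Of lost regions 35.6% of the 480 remote ones overlapped Tdg -/- 5fC, against 52.3% at 10 to 100 kb, 57.0% of the 2385 at 1 to 10 kb and 50.5% of the 872 within 1 kb. In both classes the overlap was thus highest at 1 to 10 kb and lowest beyond 100 kb.

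Clusters of p300 regions are of interest because strong enhancer domains are often built of several neighbouring binding sites. Regions with gaps of up to 10 kb were joined into chains, and chains of at least 3 regions were called clusters. The Tdg -/- list held 4114 clusters with 19172 regions, 44.2% of the list (43.8% to 44.7%). The fl/fl list held 2775 clusters with 11933 regions, 37.1% (36.6% to 37.6%). A denser list chains more readily: trimmed by score to the fl/fl number, the Tdg -/- list had 36.9% of its regions in clusters. The median cluster had 4 regions in both genotypes, and spanned 13.2 kb in Tdg -/- cells and 12.7 kb in fl/fl cells.

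Clusters were mostly mixtures, in lists where 42.2% of all Tdg -/- regions were new and 21.6% of all fl/fl regions were lost. Shares of this size by themselves make mixed clusters common and clusters of only new or only lost regions few. The numbers to be had from these shares alone were not computed. In the Tdg -/- list 3373 clusters (82.0%) held both new and shared regions, 577 (14.0%) only shared and 164 (3.99%) only new regions. In the fl/fl list 1524 clusters (54.9%) held both lost and shared regions, 1219 (43.9%) only shared and 32 (1.15%) only lost regions. Among Tdg -/- regions that stood alone, 45.8% (45.0% to 46.5%) were new, and in chains of at least 10 regions 36.0% (34.2% to 37.8%) were. Among fl/fl regions that stood alone, 22.6% (21.9% to 23.3%) were lost, and in chains of at least 10 regions 19.2% (16.9% to 21.7%) were. New regions thus took a smaller share of large chains than of single regions. Of all new regions 41.0% were in clusters, against 46.6% of shared Tdg -/- regions, and of lost regions 34.8% were, against 37.7% of shared fl/fl regions.

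**Figure D3:**
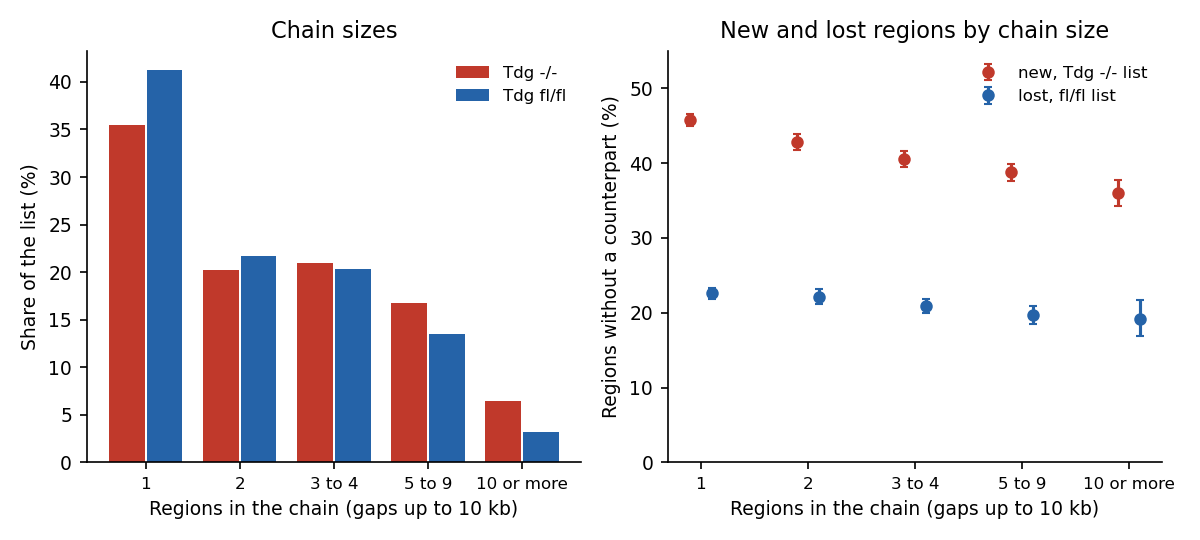
Left, share of each list (%, y axis) by the number of regions in the chain, for Tdg -/- (red) and fl/fl (blue). Right, share of regions without a counterpart (%, y axis) in the same chain sizes, new in red and lost in blue, with Wilson 95% intervals: new regions go down to 36.0% and lost regions to 19.2% in chains of 10 or more.

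By number of regions, the largest Tdg -/- cluster lay where the fl/fl list had a cluster tied for largest. The Tdg -/- cluster ran over chr13:44755078-44851414 with 29 regions, 12 of them new. The fl/fl cluster ran over chr13:44753078-44831395 with 19 regions, 3 of them lost. The next largest of the Tdg -/- list were chr3:9586179-9662462, with 23 regions of which 10 were new, and chr10:66456990-66547236, with 22 regions of which 6 were new. In the fl/fl list chr16:30039157-30094172 also had 19 regions, of which 2 were lost. It was followed by chr6:144989046-145056088, with 18 regions of which 5 were lost. All 5 places thus held p300 in both genotypes, and shared regions outnumbered unmatched ones in each. The clusters without a shared region were small. The 2 with the most regions, chosen after their values were seen, each had 6 new regions. One lay at chr17:25950351-25981901, where the fl/fl list had 0 regions, with a highest score of 142. The other lay at chr4:149892828-149919489, where the fl/fl list had 1 region, with a highest score of 129.

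Chromosome 11 did not follow the others. It held 2147 p300 regions in Tdg -/- cells and 2728 in fl/fl cells, a ratio of 0.787, whereas the ratio was 1.34 to 1.48 on the other 18 autosomes and 1.51 on the X chromosome (739 regions in Tdg -/- cells and 490 in fl/fl cells). Only 27.1% of its Tdg -/- regions were new (40.6% to 47.1% on the other autosomes) and 42.1% of its fl/fl regions were lost (16.7% to 22.7%). Its 1148 lost regions made up 16.5% of all lost regions. The deficit ran along the whole chromosome. In windows of 10 Mb with at least 20 fl/fl regions, all 13 windows of chromosome 11 had fewer regions in Tdg -/- than in fl/fl cells, with ratios of 0.685 to 0.988. None of the 249 windows elsewhere did, with ratios of 1.14 to 2.10.

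**Figure D4:**
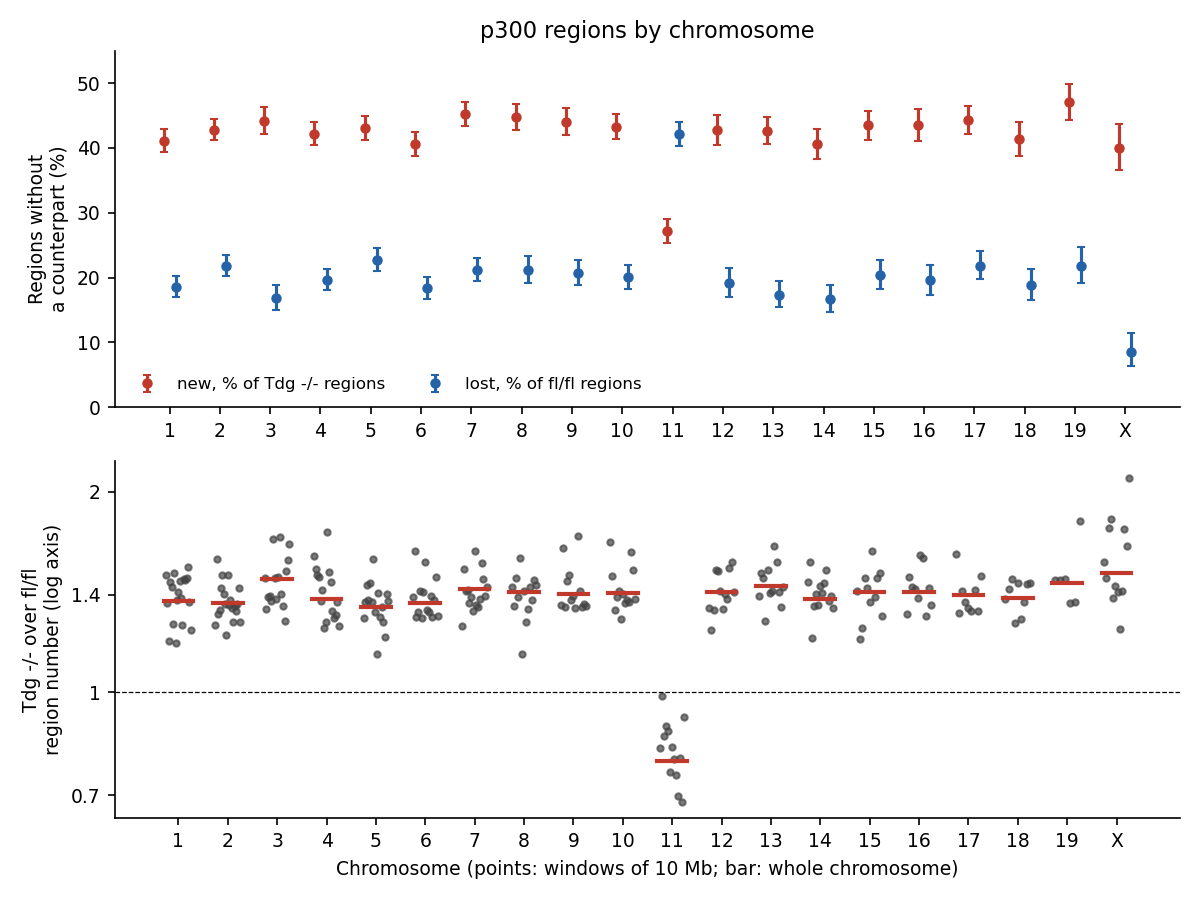
Top, share of regions without a counterpart (%, y axis) on each chromosome, new in red and lost in blue, with Wilson 95% intervals. Bottom, number of Tdg -/- over number of fl/fl regions (log axis) in each window of 10 Mb (points) and on the whole chromosome (bars); the 13 windows of chromosome 11 lie between 0.685 and 0.988, below all others.

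Other measures on chromosome 11 differed as well. Its matched regions had a median log2 width ratio of 0.01, against 0.06 to 0.09 on the other autosomes. Clusters held 36.1% of its Tdg -/- regions and 46.2% of its fl/fl regions, while the median of the other autosomes was 44.1% in Tdg -/- and 35.8% in fl/fl cells. The 5fC and 5hmC lists moved in the opposite direction there: 5fC regions numbered 4.03 times as many in Tdg -/- as in fl/fl cells (1.86 to 2.35 on the other autosomes, 5.27 on the X chromosome), and 5hmC regions 2.21 times as many (1.15 to 1.33, and 1.60 on the X chromosome). RNA from chromosome 11 was lower, with a median log2 change (Tdg -/- over fl/fl, FPKM plus 1) of -0.24 over 759 genes with at least 5 FPKM in either genotype, against -0.04 to -0.002 as the medians of the other chromosomes. High 5fC and 5hmC ratios were also found in windows of chromosome 6, given here as examples. In the 3 windows over the first 30 Mb of chromosome 6, the 5fC ratios were 6.93, 9.27 and 8.88 and the 5hmC ratios 2.76, 3.88 and 2.98, while the p300 ratios were 1.39, 1.63 and 1.29. The part of RNA or of either mark in the p300 difference on chromosome 11 was not tested. Genotype and any other difference between the Tdg -/- and fl/fl cells cannot be told apart in it. Without chromosome 11, 17731 of 41198 Tdg -/- regions were new (43.0%) and 5810 of 29432 fl/fl regions were lost (19.7%).

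The X chromosome stood out at the other end. Only 42 of its 490 fl/fl regions were lost (8.57%, 6.40% to 11.4%), while 40.1% of its Tdg -/- regions were new, close to the autosomes. Its p300 regions were narrow, with a median of 671 bp in Tdg -/- and 691.5 bp in fl/fl cells.

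The position of oxidised cytosine relative to the p300 centre differed between the classes. The share of p300 regions whose centre lay in a listed 5hmC or 5fC region of ES cells was set beside the same share at fixed distances. At the centres of new regions, 37.0% (36.3% to 37.7%) lay in 5hmC of Tdg -/- cells and 33.2% in 5hmC of fl/fl cells. At 1 kb to each side these shares were 30.0% for 5hmC of Tdg -/- cells and 24.6% for 5hmC of fl/fl cells. Lost regions had the same form, with 43.2% (42.1% to 44.4%) at the centre and 35.1% at 1 kb for 5hmC of Tdg -/- cells, and 32.8% at the centre and 26.3% at 1 kb for 5hmC of fl/fl cells. Shared regions had the reverse: 5hmC of Tdg -/- cells covered 23.0% (22.5% to 23.5%) of their centres and 26.2% at 1 kb, and 5hmC of fl/fl cells covered 18.0% of centres and 21.5% at 1 kb. Over all regions of a class, 5hmC coverage was thus higher at the centre than at 1 kb in new and lost regions and lower in shared ones, with the 5hmC lists of either genotype, although most centres of each class lay outside listed 5hmC.

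The sign was also counted by chromosome. For 5hmC of Tdg -/- cells, the centre exceeded the flanks in new regions on 20 of 20 chromosomes and in lost regions on 19, with a difference of 0 on the remaining one. In shared regions of the Tdg -/- list the centre was below the flanks on 20 of 20 chromosomes. For 5hmC of fl/fl cells, the centre exceeded the flanks in new regions on 20 of 20 chromosomes and in lost regions on 18. For lost regions the difference was then 0 on the X chromosome and -3.23 percentage points on chromosome 19. In shared regions of the Tdg -/- list the centre was again below the flanks on 20 of 20. At 10 kb from the centre, 5hmC of Tdg -/- cells covered 23.4% of new and 23.8% of shared regions of the Tdg -/- list. Lost regions stayed higher there, at 29.3%. For 5hmC of fl/fl cells the shares at 10 kb were 18.5% for new, 18.8% for shared and 20.9% for lost regions.

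**Figure D5:**
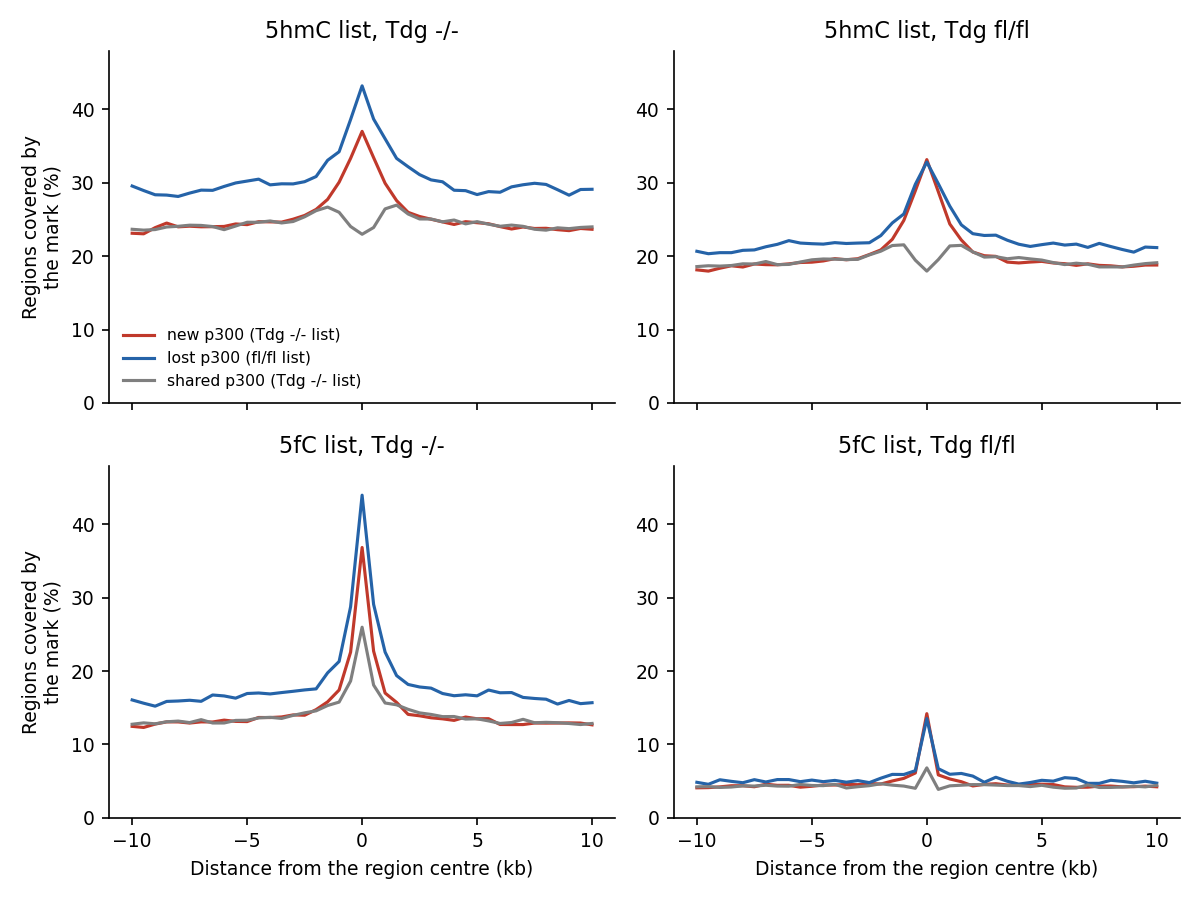
Share of p300 regions covered by a listed 5hmC (top) or 5fC region (bottom) in % (y axis) against distance from the p300 centre in kb (x axis), with the Tdg -/- lists of the marks left and the fl/fl lists right; lines are new (red), lost (blue) and shared (grey) p300 regions. New and lost regions peak at the centre in all panels, while shared regions dip there for 5hmC, at 23.0% and 18.0%.

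The 5hmC difference between centre and flanks went with the score. For 5hmC of Tdg -/- cells, centre minus 1 kb was 9.09 percentage points in new and 0.538 in shared regions scoring under 100. It was 3.52 in new and -1.53 in shared regions scoring 100 to 200, and -3.82 in new and -6.33 in shared regions scoring 200 or more. New regions stood above shared ones in each band, and both classes moved from a peak towards a dip as scores rose. In the fl/fl list it was 10.5 points in lost and 0.135 in shared regions under 100, -0.367 in lost and -4.06 in shared regions at 100 to 200, and -0.838 in 179 lost and -8.68 in shared regions at 200 or more. The central 5hmC peak of lost regions was thus present only under a score of 100. By width it had no steady order in the Tdg -/- list. Among regions under 700 bp it was 6.93 points for new and -1.54 for shared regions, among regions of 700 to 1000 bp it was 9.94 points for new and -0.999 for shared regions, and among regions of 1000 bp or more it was 1.06 points for new and -6.04 for shared regions.

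Over all scores, 5fC peaked at the centre of every class. The list of Tdg -/- cells covered 36.8% of new, 44.0% of lost and 26.0% of shared p300 centres, against 12.6%, 15.9% and 12.8% at 10 kb. The shorter fl/fl list of 5fC covered 14.2% of new, 13.5% of lost and 6.81% of shared centres, against 4.16%, 4.79% and 4.33% at 10 kb. Over all scores, both oxidised bases were thus more frequent at the centres of new and lost regions than of shared ones. The size of this gap varied with score. In the Tdg -/- list, Tdg -/- 5fC covered 38.1% of new and 32.8% of shared centres under a score of 100. At 200 or more it covered 31.4% of new and 22.0% of shared centres. At scores of 200 or more the central peak of fl/fl 5fC was smaller or absent. There, centre minus 1 kb was -0.838 points in 179 lost and 0.033 in shared fl/fl regions. It was 4.68 in new and 1.06 in shared Tdg -/- regions. For Tdg -/- 5fC it was 11.3 in new, 6.98 in lost and 6.64 in shared Tdg -/- regions. Lost regions include the 1148 of chromosome 11, where the Tdg -/- lists of both marks were long. Without chromosome 11, 5hmC of Tdg -/- cells covered 36.9% of new and 41.9% of lost centres.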

How the data were processed

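Per the submitters' processing notes, reads of the p300 libraries were handled with CASAVA 1.8.2, Bowtie 0.17.2 and MACS 1.4 on the mm9 build, and RNA with TopHat 1.4.1 and Cufflinks 1.3.0. The labels name neither the threshold nor the control of the calls. The p300 lists deposited by the authors hold positions and a score for each region and have no header. Coordinates appear as in the files, and the labels do not say whether starts count from 0. FPKM values were deposited by the authors, 1 for each gene and genotype. Depth is unknown.

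Overlaps, distances between edges, chains and windows were computed in Python 3.11.15 with numpy 2.4.6, pandas 2.3.3 and scipy 1.17.1, and checked on simulated regions. Genes were placed on chromosomes by symbol or synonym with RefSeq names of GRCm38.p6 (99.4% of 8826 genes). The regions that could be named were the 5 new and 5 lost with the highest scores, the 3 widest and the 3 largest clusters of each list, and the 2 matched pairs at each end of the width ratio. Members, lists and measures were chosen with earlier results of these data known; the score and width bands and the centre-to-flank difference were chosen after seeing the data.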

Additional observations from a re-analysis of the deposited data

How the results depend on the processing

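No paired analysis was possible because each list pools its 3 libraries, and leaving out a library could not be run for the same reason. New and lost regions were narrower than shared ones, and the chromosome 11 ratio was below 1, in every setting run. New outnumbered lost regions by a ratio of 2.57 or more where the list lengths differed. With the Tdg -/- list trimmed to the fl/fl number the counts were nearly equal, at 10125 new and 9851 lost regions (a ratio of 1.03). Shared regions mostly matched 1 to 1, so lists of equal length give nearly equal counts by construction. The trimmed counts therefore cannot show what the excess of new regions rests on. Requiring an overlap of 50% of the shorter region left every measure within the counting interval or 1.5 times the count. Counting gaps of up to 500 bp as overlap put 28.6% of new and 27.8% of lost regions within 5 kb of a shared one, and the median width of new regions 213 bp and of lost regions 117 bp below shared ones (differences of -213 and -117 bp).

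Keeping scores of at least 100 gave 11088 new and 3378 lost regions, 23.9% and 22.6% of them within 5 kb, 31.0% of Tdg -/- and 24.6% of fl/fl regions in clusters, width differences of -197 and -68 bp, a log2 width ratio of 0.063 and a chromosome 11 ratio of 0.848. There the centre-minus-flank difference of Tdg -/- 5hmC was 0.496 points for new, -2.37 for lost (the opposite sign) and -5.60 for shared regions. Trimming the Tdg -/- list gave 10125 new regions, 31.9% of new and 30.2% of lost regions within 5 kb, 36.9% of Tdg -/- regions in clusters, width differences of -184 and -141 bp, a chromosome 11 ratio of 0.581, and 5hmC differences of 4.78 for new, 6.01 for lost and -3.88 for shared regions.

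Merging regions closer than 1 kb gave 22.7% of new and 23.0% of lost regions within 5 kb, 32.4% of Tdg -/- and 26.1% of fl/fl regions in clusters, width differences of -310 and -158 bp, and a log2 width ratio of 0.086. Without chromosome 11, 36.3% of fl/fl regions were in clusters and the log2 width ratio was 0.075. Distances between centres put 30.5% of new and 29.4% of lost regions within 5 kb, a limit of 2 kb held 21.0% and 19.4%, and a limit of 10 kb held 46.7% and 46.8%. Cluster gaps of 5 kb gave 29.2% in Tdg -/- and 23.4% in fl/fl cells, gaps of 20 kb 61.6% and 53.7%, and a minimum of 5 regions 23.2% and 16.8%. The causes were not tested.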

Other observations

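The lists of fl/fl embryoid bodies, the clumps that ES cells form early in differentiation, gave another picture at the same p300 places. 5hmC of embryoid bodies covered 31.8% of new, 42.4% of lost and 29.1% of shared p300 centres, and 17.6% of new, 23.9% of lost and 17.2% of shared regions at 1 kb. The dip of ES cell 5hmC at shared p300 centres was thus not present in the embryoid body list, where shared centres were a peak. Embryoid body 5fC covered 10.2% of new, 18.3% of lost and 11.1% of shared centres, and 2.82% of new, 4.61% of lost and 2.66% of shared regions at 1 kb. Lost p300 regions overlapped embryoid body 5hmC in 47.7% of cases (46.5% to 48.8%) and new ones in 36.2% (35.5% to 36.9%). Shared regions did so in 36.4% of cases in the Tdg -/- list and 35.9% in the fl/fl list. New regions were thus at the level of shared ones, and lost regions were above it. Without chromosome 11 the shares were 47.9% of lost and 36.2% of new regions. No p300 list of embryoid bodies was analysed here, and these differences were not tested.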
